A study of Mus musculus with 6 samples.

Results

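The unfolded protein and ATF4 response genes were 35 genes of endoplasmic reticulum (ER) protein folding and stress, out of 14254 genes measured. They were taken by name from 4 lists: 14 ER chaperones and folding enzymes, 4 genes of ER degradation, 4 genes of the stress sensors and Xbp1, and Atf4 with 12 of its targets. All 35 were in the deposited table and all 35 passed the filter on low values, which kept genes that reached a normalised count of 10 in 3 or more libraries. RNA came from organoids, clusters of tumour cells, of KPF_5.3G, a mouse line of pancreatic ductal adenocarcinoma (PDAC). Their medium held nicotinamide, N-acetylcysteine, Noggin, R-spondin-1, EGF, FGF-10 and gastrin. Of the 6 libraries, 3 were from organoids with a lentiviral short hairpin RNA (shRNA) against Jag1 (shJag1_3, the knockdown) and 3 from organoids with a control shRNA (shCtrl, labelled WT). The study asked what Jag1, a ligand of Notch receptors, does in tumour-initiating cells with high CD9. Only 1 line and 1 Jag1 hairpin were used, so an effect of Jag1 loss and an effect of that hairpin cannot be told apart.

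Proteins that enter the ER are folded by chaperones, and unfolded protein is sensed by 3 membrane proteins: IRE1 (gene Ern1), PERK (Eif2ak3) and ATF6. IRE1 splices the mRNA of Xbp1, and XBP1 and cleaved ATF6 switch on the genes of ER chaperones and of ER-associated degradation, which returns misfolded protein to the cytosol for destruction. PERK phosphorylates the initiation factor eIF2alpha, which lowers protein synthesis but favours translation of ATF4, a transcription factor for amino acid metabolism and stress genes. The ATF4 arm also answers to other eIF2alpha kinases, such as GCN2, which senses a shortage of amino acids, so it can move without the chaperone arm. Secretory and mucus-producing epithelia are known for high chaperone expression.

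Libraries held 23219455 to 35172593 reads in knockdown organoids and 22268997 to 30515717 reads in control organoids. Jag1 had normalised counts of 226, 321 and 557 in knockdowns 1, 2 and 3, against 412, 983 and 847 in controls 1, 2 and 3. It was lower in the knockdown of every replicate number, but knockdown 3 lay above control 1, so the groups overlapped. Its log2 change of -1.03 ± 0.45 (SE) did not pass limma (adjusted p = 0.691). With the replicate number as a block, it passed DESeq2 (adjusted p = 0.00628) and not limma (adjusted p = 0.149). The libraries of replicate 1 stood apart from the other 4 in both groups, and the main results are also given within each replicate number or without replicate 1. All 6 epithelial markers were present, with summed normalised counts of 176140 to 459880 in knockdown and 132880 to 176790 in control organoids. Plasma cells, which are rich in ER chaperones, were represented by 2 of 8 markers (Sdc1, which epithelia also express, and Prdm1), with their defining genes Jchain and Mzb1 not listed in the table. Acinar cells had 2 of 11 markers, which summed to at most 110 in knockdown and 82.7 in control organoids, and fibroblast, immune and endothelial lists had 2 of 9, 1 of 8 and 1 of 6 markers in the table. The immune marker was Cd68, which had normalised counts of 117, 988 and 400.4 in knockdowns 1, 2 and 3, against 98.6, 136 and 111 in controls 1, 2 and 3. Its part in the results was not tested.

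The promoter sequences of the members show how the arms differ in known response elements. RefSeq promoter windows (build GRCm38.p6), which run from 250 bases before to 50 bases after a gene's start, were found for 32 of the 35 members. The ER stress response element (ERSE, the letters CCAAT and CCACG with 9 bases of any kind between them), which ATF6 and XBP1 can bind with NF-Y, was searched on both strands. It occurred in 39 of 32851 windows (0.119%). Of the members, 8 held it: 7 of the 12 chaperones with a window, 1 of 4 ER degradation genes, and none of the 13 genes of the ATF4 arm. These 8 are shown because they carry the element found among the chaperones and in no window of the ATF4 arm. Each stretch is 130 bases long (144 in Hsp90b1), runs 5′ to 3′ toward its own gene and has the ERSE in capitals.
Hspa5 (chr2:34771960-34772089, plus strand): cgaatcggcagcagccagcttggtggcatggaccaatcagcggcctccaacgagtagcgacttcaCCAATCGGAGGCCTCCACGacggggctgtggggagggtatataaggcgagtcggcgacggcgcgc
Hsp90b1 (chr10:86705523-86705666, minus strand): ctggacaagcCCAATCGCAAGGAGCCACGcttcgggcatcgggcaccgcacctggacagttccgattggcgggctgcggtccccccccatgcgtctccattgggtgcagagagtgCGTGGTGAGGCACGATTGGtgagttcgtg
Calr (chr8:84846974-84847103, minus strand): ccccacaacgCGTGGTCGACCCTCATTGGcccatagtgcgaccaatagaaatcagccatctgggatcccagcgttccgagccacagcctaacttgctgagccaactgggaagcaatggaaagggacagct
Canx (chr11:50325699-50325828, minus strand): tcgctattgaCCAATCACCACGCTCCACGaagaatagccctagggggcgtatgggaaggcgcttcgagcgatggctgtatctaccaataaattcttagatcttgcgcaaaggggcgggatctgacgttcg
Pdia6 (chr12:17266459-17266588, plus strand): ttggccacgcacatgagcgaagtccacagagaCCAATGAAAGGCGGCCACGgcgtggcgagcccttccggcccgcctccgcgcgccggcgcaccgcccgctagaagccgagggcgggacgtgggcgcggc
Dnajc3 (chr14:118937802-118937931, plus strand): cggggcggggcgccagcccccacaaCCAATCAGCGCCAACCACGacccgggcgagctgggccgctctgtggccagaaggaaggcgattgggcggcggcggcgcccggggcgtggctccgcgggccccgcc
Creld2 (chr15:88819516-88819645, plus strand): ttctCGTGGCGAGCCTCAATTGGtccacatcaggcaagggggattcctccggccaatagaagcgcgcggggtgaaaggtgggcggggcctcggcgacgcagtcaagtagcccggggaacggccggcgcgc
Syvn1 (chr19:6046446-6046575, plus strand): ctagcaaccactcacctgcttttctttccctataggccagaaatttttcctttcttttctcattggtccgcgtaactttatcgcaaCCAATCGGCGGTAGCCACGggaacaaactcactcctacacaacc

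The element lay 65 bases before the start in Hspa5, which encodes the chaperone BiP. In Hsp90b1 it occurred once on each strand, 212 and 107 bases before the start. A shorter form, ERSE-II (ATTGG and CCACG with 1 base between them), was found in 12 of 32851 windows (0.0365%), and 2 of those were members, Dnajb11 and Herpud1. No member held both an ERSE and an ERSE-II. They are shown with the ERSE-II in capitals, which in Dnajb11 begins 7 bases past the start and ends the stretch. The capitals near the left end of Herpud1 are an ATF4-type element, described next.
Dnajb11 (chr16:22857733-22857862, plus strand): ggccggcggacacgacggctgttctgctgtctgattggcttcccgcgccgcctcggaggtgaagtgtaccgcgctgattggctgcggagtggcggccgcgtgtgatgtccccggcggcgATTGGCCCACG
Herpud1 (chr8:94386299-94386428, plus strand): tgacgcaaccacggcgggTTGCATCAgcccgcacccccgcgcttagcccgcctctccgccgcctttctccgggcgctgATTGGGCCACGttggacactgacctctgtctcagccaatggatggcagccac

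The C/EBP-ATF response element (CARE, TGATG and AA with 1 base between them), to which ATF4 binds with C/EBP partners, was found in 3.97% of windows. Of the 13 windows of the ATF4 arm, 4 held it (Atf3, Trib3, Chac1 and Asns), against 0 of 12 chaperone windows. Herpud1 held both a CARE and an ERSE-II. The 4 ATF4-arm stretches follow with the CARE in capitals.
Atf3 (chr1:191183334-191183463, minus strand): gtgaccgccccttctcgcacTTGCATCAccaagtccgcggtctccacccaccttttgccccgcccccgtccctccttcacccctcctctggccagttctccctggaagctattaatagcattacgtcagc
Trib3 (chr2:152344039-152344168, minus strand): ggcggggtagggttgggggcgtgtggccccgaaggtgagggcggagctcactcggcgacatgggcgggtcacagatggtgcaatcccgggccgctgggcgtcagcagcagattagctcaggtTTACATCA
Chac1 (chr2:119351039-119351168, plus strand): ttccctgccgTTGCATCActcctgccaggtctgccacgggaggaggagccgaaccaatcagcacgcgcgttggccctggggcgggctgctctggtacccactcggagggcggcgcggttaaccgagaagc
Asns (chr6:7693210-7693339, minus strand): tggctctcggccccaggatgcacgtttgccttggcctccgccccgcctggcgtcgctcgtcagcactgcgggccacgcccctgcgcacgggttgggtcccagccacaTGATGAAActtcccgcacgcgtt

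The UPRE motif of XBP1 (TGACGTGG, in 0.676% of windows) was in no member's window. The cyclic AMP element TGACGTCA was in 1.79% of windows and in 1 member, Ppp1r15a. A match of letters in this window is a description, not a measured binding site. Only exact letters in these windows were searched, so a gene without a match may still hold a variant form or an element elsewhere.

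Across the 35 genes no member passed limma in either direction (0 of 35 higher and 0 of 35 lower at an adjusted p below 0.05), where 0% of the 13997 tested genes were called. At an unadjusted p below 0.05, limma had 0 members and 1021 of all tested genes. No member had groups that did not overlap, while 6.29% of tested genes lay wholly higher and 5.44% wholly lower in knockdown organoids. With the replicate number as a block, DESeq2 called 2 members higher, Atf3 and Ddit3, and 1 lower, Ern1. In that fit 4.57% of all tested genes were called higher and 2.58% lower. The blocked limma and edgeR fits called 0 members, and called 0.0143% of tested genes higher and 0% lower. At an unadjusted p below 0.05 each had 6 of 35 members, where limma had 2725 and edgeR 2605 of the 13997 tested genes. Without the block, edgeR called 0 members and 0% of tested genes, and DESeq2 called 0 members, with 0.722% of tested genes higher and 0.522% lower. Without replicate 1, limma called 6 members higher (Dnajb11, Sdf2l1, Creld2, Edem1, Atf3 and Ddit3) and 2 lower (Phgdh and Cebpb), against 6.04% and 3.57% of tested genes. That fit rests on 2 libraries per group. In the DESeq2 fit with the block, leaving out replicate 2 or replicate 3 left 0 members called, and leaving out replicate 1 gave 8 higher and 3 lower. Of all tested genes, those fits called 15.2% without replicate 1, 0.707% without replicate 2 and 0.864% without replicate 3.

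**Figure D1:**
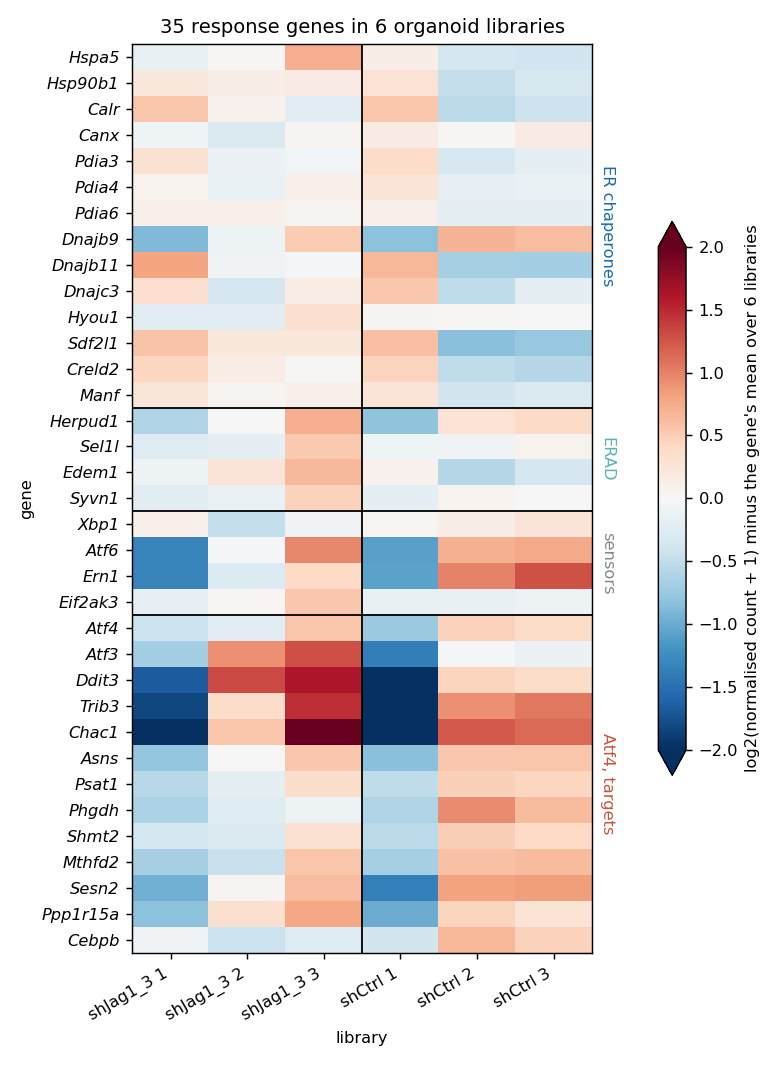
Heat map of the 35 members (rows, by arm; ERAD is ER-associated degradation) in 6 libraries (columns, knockdown left of control). Colour is log2(normalised count + 1) minus the gene's mean over the 6 libraries. Most genes of the ATF4 arm are low (blue) in both replicate 1 libraries, and 12 of 14 chaperones are lower in controls 2 and 3 than in control 1.

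Among the 14 chaperones and folding enzymes, 11 had a positive log2 change (knockdown minus control), with a median of 0.22 against 0.003 for all tested genes. BiP (Hspa5, chr2:34771970-34777547), the main ER chaperone and a brake on all 3 sensors, had normalised counts of 37745, 42847 and 69336 in knockdowns 1, 2 and 3, against 46241, 32729 and 32247 in controls 1, 2 and 3. Knockdown 3 was above every control, knockdown 2 above controls 2 and 3, and knockdown 1 below control 1. The log2 change was 0.40 ± 0.30 (SE) and did not pass limma (adjusted p = 0.822), and in replicate 3 alone the difference was 1.10. The change was 0.14 without knockdown 3, 0.048 without replicate 3 and 0.75 without replicate 1. In these bulk samples, fewer cells of a type and less RNA per cell cannot be told apart. Its partner Hsp90b1, the ER form of HSP90, had 34502, 32642 and 33644 in knockdown organoids, against 36542, 21542 and 24004 in control organoids, so that the spread lay in the controls. Exons of other genes overlap 10.3% of the Hsp90b1 exons on the opposite strand, and the kit did not mark strand.

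Sdf2l1 (chr16:17130138-17132383), which works with BiP and its co-chaperone Dnajb11 to keep proteins soluble, had the largest log2 change of the 14. Its normalised counts were 5349, 4169 and 4151 in knockdown organoids, against 5437, 2011 and 2111 in control organoids. Replicate 1 was level between the groups, and in replicates 2 and 3 the knockdown held about double the control, with log2 differences of -0.02, 1.05 and 0.97. Over all 6 libraries the change was 0.67 ± 0.39 (SE; limma adjusted p = 0.769). Without replicate 1 it was 1.01 ± 0.13 (limma adjusted p = 0.0128), and without control 1 alone it was 1.13 (limma adjusted p = 0.0455). Creld2, a disulfide-linked folding factor, was also level in replicate 1 and higher in the knockdowns of replicates 2 and 3, with 3713, 3051 and 2808 in knockdown organoids, against 3759, 1941 and 1856 in control organoids. Its log2 change was 0.41 over all libraries and 0.62 without replicate 1 (limma adjusted p = 0.0483). Dnajb11, which brings unfolded clients to BiP, had 6604, 3648 and 3746 in knockdown organoids, against 6114, 2415 and 2410 in control organoids. It was higher in the knockdown of every replicate number, by 0.11, 0.59 and 0.64 on the log2 scale. Manf, an ER protein that is secreted under stress, had 8244, 7194 and 7485 in knockdown organoids, against 8308, 5383 and 5693 in control organoids.

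The lectin chaperones went different ways. Calr (calreticulin) had 47980, 34336 and 27655 in knockdown organoids, against 47677, 22361 and 24364 in control organoids, and was the only other chaperone higher in every replicate number. Canx (calnexin), its membrane-bound relative, was lower in every replicate number, with 14676, 12794 and 16162 in knockdown organoids, against 17435, 15858 and 17464 in control organoids (log2 change -0.22, limma adjusted p = 0.824). The disulfide isomerases Pdia3, Pdia4 and Pdia6 had log2 changes of 0.09, 0.02 and 0.17. A pair of BiP-linked genes had values on either side of 0: Dnajc3, a co-chaperone, at 0.10 and Hyou1, which exchanges the nucleotide of BiP, at -0.06. Dnajb9, a co-chaperone that restrains IRE1 and is a known XBP1 target, went with Canx. It had 549.9, 941.2 and 1437 in knockdown organoids, against 570.8, 1624 and 1553 in control organoids, lower in every replicate number (log2 change -0.32). Of the 35 members, 4 were higher and 5 lower in all 3 replicate numbers, against 22.3% and 19.7% of all tested genes.

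The 12 chaperones with a promoter window divide into 8 with an ERSE or ERSE-II and 4 with no exact match to either (Dnajb9, Pdia3, Pdia4 and Sdf2l1). Median log2 changes were 0.30 for the 8 and 0.05 for the 4, and Sdf2l1, with the largest change of the arm, was among the 4. Levels per kilobase of exon, the scale on which genes can be compared, were highest for Calr (12728 in knockdown, 10926 in control) and Hspa5 (11817 and 8766). They were lowest in this arm for Dnajc3 (298.8 in knockdown, 287.9 in control).

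**Figure D2:**
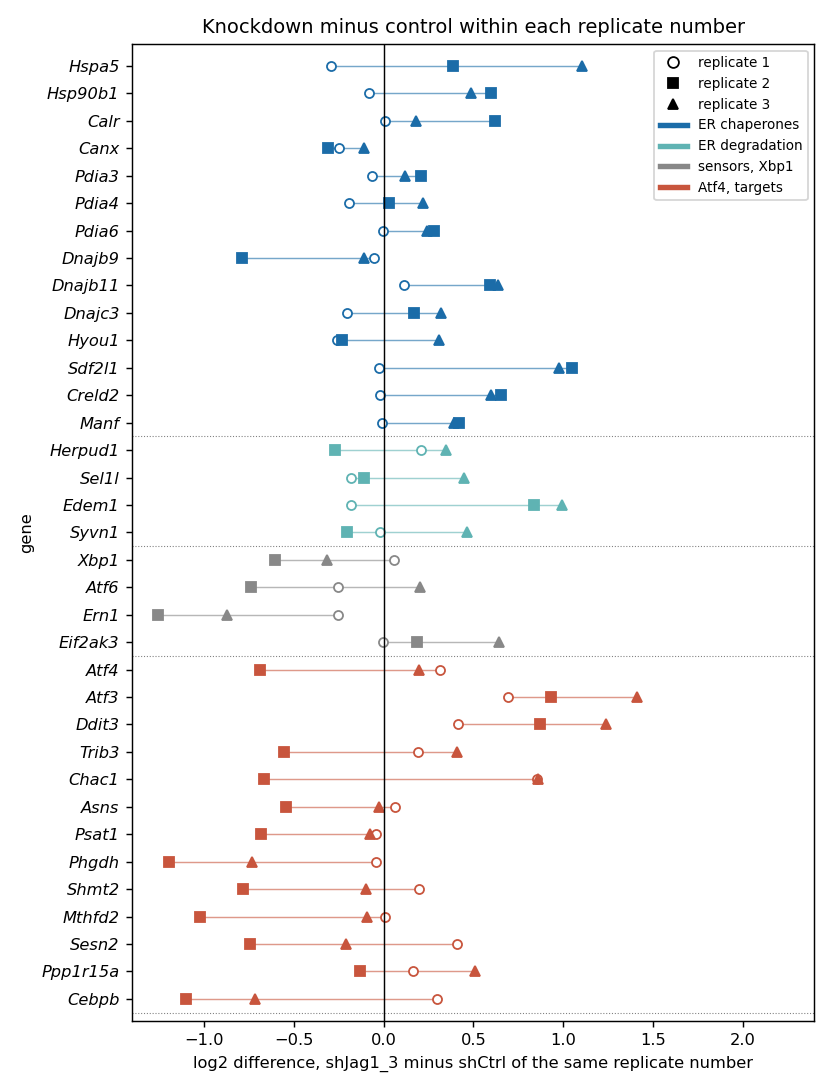
Log2 difference between the knockdown and the control library of the same replicate number (horizontal axis) for each member (vertical axis), coloured by arm. Open circles are replicate 1, squares replicate 2 and triangles replicate 3. Chaperones lie near or below 0 in replicate 1 and mostly to the right in replicates 2 and 3, while the ATF4 arm is mostly to the left in replicate 2.

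Of the 4 ER degradation genes, Edem1 had the largest log2 change. Edem1, which recognises misfolded glycoproteins by their trimmed sugars, had 2753, 3529 and 4624 in knockdown organoids, against 3124, 1973 and 2323 in control organoids. It was higher in replicates 2 and 3 and lower in replicate 1, with a log2 change of 0.55 ± 0.26 (SE; limma adjusted p = 0.701). Without replicate 1 the change was 0.92 (limma adjusted p = 0.0394). The parts of the membrane complex that moves clients out of the ER had small changes: the ubiquitin ligase Syvn1 0.08, its adaptor Sel1l 0.05 and its stress-induced partner Herpud1 0.09. These 3 genes were each highest in knockdown 3, where Sel1l had 4959 normalised counts, against 2869 and 3029 in knockdowns 1 and 2 and 3250, 3272 and 3634 in control organoids.

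Of the 4 genes of the sensors and Xbp1, 3 had negative log2 changes, at a median of -0.28. Ern1 (chr11:106394650-106487852), which encodes IRE1alpha, had 994.6, 2074 and 3309 in knockdown organoids, against 1186, 4954 and 6064 in control organoids. It was lower in the knockdown of every replicate number, by 0.25, 1.26 and 0.87 on the log2 scale, but controls and knockdowns overlapped because control 1 was low. The change of -0.79 ± 0.70 (SE) did not pass limma (adjusted p = 0.854). With the replicate block Ern1 fell in DESeq2 (log2 change -0.80 ± 0.24 SE, adjusted p = 0.0183) and not in limma (adjusted p = 0.162). In limma without the block, the change was -1.53 without control 1, -0.35 without control 3 and -0.33 without knockdown 1. Without both libraries of replicate 1, 2 or 3 it was -1.06, -0.56 and -0.76. Xbp1, whose mRNA IRE1 splices, had 5510, 3691 and 4902 in knockdown organoids, against 5287, 5625 and 6099 in control organoids (log2 change -0.29, limma adjusted p = 0.801). Counts per gene do not separate spliced from unspliced Xbp1. Atf6 had 871.8, 2156 and 4279 in knockdown organoids, against 1039, 3595 and 3720 in control organoids, and varied more between replicate numbers than between groups. Eif2ak3, which encodes PERK, had 770.0, 881.0 and 1253 in knockdown organoids, against 773.0, 775.2 and 802.2 in control organoids, with knockdown 3 above all others (log2 change 0.27).

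Within the ATF4 arm, log2 changes were of mixed sign. Positive changes were found in 2 of the 4 transcription factors, 3 of the 4 stress effectors and 0 of the 5 amino acid and one-carbon enzymes. The arm's median log2 change was -0.17, with 5 of 13 positive and a mean of -0.003. Atf4 itself had 8930, 10246 and 17665 in knockdown organoids, against 7181, 16514 and 15396 in control organoids, a log2 change of -0.06 ± 0.40 (SE; limma adjusted p = 0.99). ATF4 protein is set largely by translation, so its mRNA level does not report its activity.

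Both stress-induced transcription factors downstream of ATF4 were higher in knockdown organoids in every replicate number. Atf3 (chr1:191170296-191218039) had 379.8, 1150 and 1494 in knockdown organoids, against 234.5, 602.9 and 560.6 in control organoids. Ddit3 (chr10:127290774-127296288), which encodes the pro-apoptotic factor CHOP, had 273.6, 2179 and 2667 in knockdown organoids, against 205.5, 1191 and 1131 in control organoids. In both genes the groups overlapped only through knockdown 1, which lay below controls 2 and 3. Atf3 differed by 0.69, 0.93 and 1.41 and Ddit3 by 0.41, 0.87 and 1.24 on the log2 scale in replicates 1, 2 and 3. Over all 6 libraries Atf3 changed by 1.01 ± 0.60 (SE; limma adjusted p = 0.769) and Ddit3 by 0.84 ± 1.04 (SE; limma adjusted p = 0.896). With the replicate block both rose in DESeq2, Atf3 by 1.02 ± 0.23 (SE, adjusted p = 0.000927) and Ddit3 by 0.85 ± 0.23 (SE, adjusted p = 0.00698), and neither in limma (adjusted p = 0.147 and 0.149). The limma change of Atf3 was 0.58 without control 1, 0.62 without knockdown 3 and 1.61 without knockdown 1. That of Ddit3 was 0.0089 without control 1, 0.24 without knockdown 3, 0.39 without knockdown 2 and 1.88 without knockdown 1. These fits keep the other library of the same number. Without both libraries of replicate 1, 2 or 3, Atf3 changed by 1.17, 1.05 and 0.81 and Ddit3 by 1.05, 0.82 and 0.64. Both were called by limma without replicate 1 (adjusted p = 0.022 for Atf3 and 0.0193 for Ddit3). Of the Ddit3 exons, 3.97% overlap Mars, the methionyl-tRNA synthetase gene on the opposite strand, and 6.13% a second annotated Ddit3 gene. The fourth factor, Cebpb, a C/EBP partner of ATF4, had 3496, 2719 and 3069 in knockdown organoids, against 2849, 5837 and 5035 in control organoids. Its differences were 0.29, -1.10 and -0.71, and without replicate 1 it was called lower (log2 change -0.91, limma adjusted p = 0.0247). Exons of Tmem189 overlap 20.7% of the Cebpb exons on the opposite strand.

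**Figure D3:**
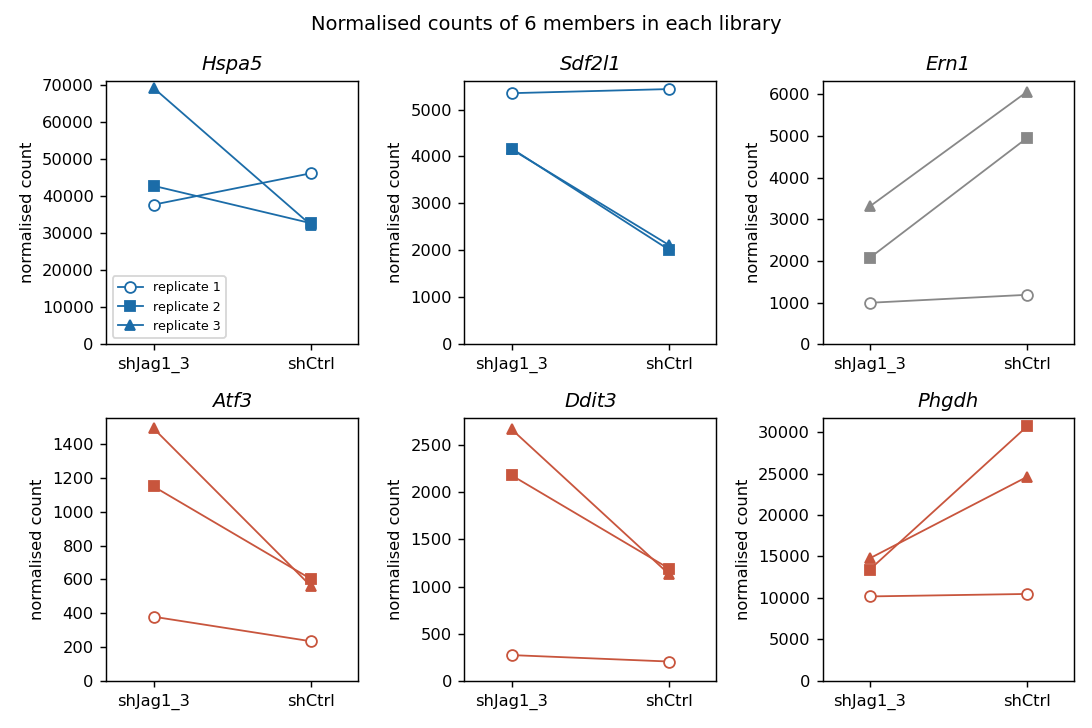
Normalised counts (vertical axes, from 0) of Hspa5, Sdf2l1, Ern1, Atf3, Ddit3 and Phgdh in each library, knockdown left and control right. Lines join libraries of the same replicate number. Atf3 and Ddit3 are higher and Ern1 lower in the knockdown of each replicate number, while Sdf2l1 and Phgdh are level in replicate 1.

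The 4 stress effectors had log2 changes near 0 or of either sign. Trib3, a pseudokinase that ATF4 and CHOP induce, had 334.2, 1515 and 3263 in knockdown organoids, against 292.5, 2228 and 2453 in control organoids (log2 change 0.02). Chac1, which degrades glutathione, had 193.8, 1170 and 3158 in knockdown organoids, against 106.9, 1856 and 1738 in control organoids (log2 change 0.35). Both were lower in knockdown 2 than in control 2 and higher in the knockdowns of replicates 1 and 3. Sesn2, a leucine-sensing stress protein, changed by -0.18 and Ppp1r15a, the phosphatase subunit that ends eIF2alpha phosphorylation, by 0.18. None of the 4 was called in any of the fits with and without the block.

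All 5 enzymes of amino acid and one-carbon metabolism had negative log2 changes, and all 5 were lower in knockdowns 2 and 3 than in the controls of the same number. In replicate 1, 3 of the 5 were higher in the knockdown, at a median difference of 0.006. Phgdh (chr3:98313170-98339990), the first enzyme of serine synthesis, had 10186, 13430 and 14782 in knockdown organoids, against 10485, 30704 and 24614 in control organoids. Replicate 1 was level and replicates 2 and 3 differed by -1.19 and -0.74. The change of -0.66 ± 0.41 (SE; limma adjusted p = 0.783) was -0.96 ± 0.17 (SE) without replicate 1 (limma adjusted p = 0.0279). Psat1, the next enzyme of that pathway, had 6193, 7939 and 11661 in knockdown organoids, against 6385, 12728 and 12270 in control organoids (log2 change -0.27). Mthfd2 and Shmt2, mitochondrial enzymes of one-carbon metabolism, changed by -0.37 and -0.23, and asparagine synthetase (Asns) by -0.17. Apart from Phgdh, none of these enzymes was called in the fits without replicate 1. By promoter letters, the 4 genes of the arm with a CARE had a median change of 0.18 and the 9 without it -0.23. The 4 ranged from -0.17 (Asns) to 1.01 (Atf3), and Ddit3, at 0.84, was among the 9. Within replicates 1, 2 and 3 the medians were 0.44, -0.55 and 0.64 for the 4, and 0.19, -0.74 and -0.09 for the 9. A link between the element and the change was not tested.

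The arms were compared through their medians, which stand for the lists and carry no test. The chaperone median minus the ATF4 median was 0.39 on the log2 scale over all libraries (0.22 and -0.17). Within replicates 1, 2 and 3 it was -0.25, 1.02 and 0.34. In replicate 1 the chaperone arm was at -0.06 (2 of 14 positive) and the ATF4 arm at 0.19 (11 of 13 positive). In replicate 2 the order was opposite, with chaperones at 0.33 (11 of 14 positive) and the ATF4 arm at -0.68 (2 of 13 positive). In replicate 3 chaperones stood at 0.32 (12 of 14 positive) and the ATF4 arm at -0.02 (6 of 13 positive). Medians of all tested genes lay between -0.01 and 0.01 in each replicate number. The difference was -0.07 without knockdown 1, -0.06 without control 2 and 1.06 without control 1. These fits keep the other library of the same number, and in them sign and size moved with single libraries. Without both libraries of replicate 1, 2 or 3 it was 0.61, 0.0056 and 0.29. By sums, the chaperones took 0.862%, 0.694% and 0.848% of the normalised counts of genes in knockdowns 1, 2 and 3, against 0.958%, 0.565% and 0.596% in controls 1, 2 and 3. The ATF4 arm took 0.166%, 0.207% and 0.321% in knockdown organoids, against 0.158%, 0.364% and 0.333% in control organoids.

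The arms differed most plainly between replicate numbers of the same group. In control organoids, all 13 genes of the ATF4 arm were higher in both controls 2 and 3 than in control 1, where 45.1% of all tested genes were. Of the 14 chaperones, 12 were lower in both than in control 1, where 44.4% of all tested genes were, and only Dnajb9 was higher in both. In knockdown organoids 12 of 13 ATF4-arm genes were higher in both knockdowns 2 and 3 than in knockdown 1 (38.7% of all tested genes), Cebpb being the exception. There 9 of 14 chaperones were lower in both (39.7% of all tested genes). The median shift between replicates 2 and 3 and replicate 1 was 1.04 in knockdown and 1.35 in control organoids for the ATF4 arm. It was -0.13 in knockdown and -0.60 in control organoids for the chaperones. For Chac1 these shifts were 3.30 in knockdown and 4.06 in control organoids, larger than any difference between the groups among the members. Ddit3 shifted by 3.13 in knockdown and 2.49 in control organoids, and Trib3 by 2.73 and 2.99. Dnajb9, Ern1 and Atf6 shifted upward with the ATF4 arm in both groups, by 1.08, 1.40 and 1.80 in knockdown and by 1.48, 2.21 and 1.81 in control organoids. Of the ER degradation genes, Herpud1 shifted by 0.96 in knockdown and 1.13 in control organoids. Syvn1 shifted by 0.39 and 0.24, Sel1l by 0.43 and 0.085, and Edem1 by 0.553 and -0.545.

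Goblet and mucous markers (8 of 10 in the table) moved with this replicate difference. They summed to 29388, 3888 and 1936 normalised counts in knockdowns 1, 2 and 3, against 38711, 4954 and 12228 in controls 1, 2 and 3, highest in replicate 1 of both groups. Summed chaperone counts were highest in replicate 1 in control organoids and not in knockdown organoids. Mitochondrially encoded genes took 0.555%, 1.02% and 1.20% of reads in knockdown organoids, against 0.595%, 1.55% and 2.03% in control organoids, low in replicate 1 as the ATF4 arm was. The part of either in the replicate difference was not tested, and the labels do not say what a replicate number stands for.

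**Figure D4:**
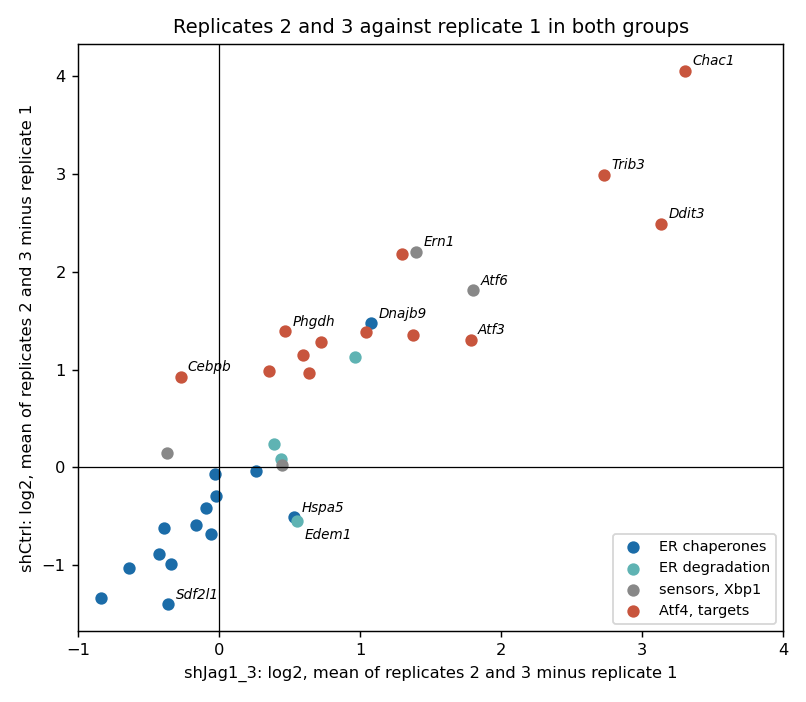
Each point is a member, placed by the log2 difference of replicates 2 and 3 (mean) from replicate 1 in knockdown (horizontal axis) and in control organoids (vertical axis), with no library on both axes. ATF4-arm genes lie upper right, led by Chac1, Trib3 and Ddit3, except Cebpb, which lies upper left. Most chaperones lie lower left.

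Other genes of the same pathways were taken from 10 lists outside the members. In the 30 other ATF4 targets the median log2 change was -0.23, and within replicates 1, 2 and 3 it was 0.10, -0.78 and -0.10, the same signs as in the ATF4 arm. All 30 were higher in both controls 2 and 3 than in control 1 (45.1% of all tested genes). In knockdown organoids 24 of the 30 were higher in both knockdowns 2 and 3 than in knockdown 1, and 2 were lower in both. Of all tested genes, 38.7% and 39.7% were. With the block, DESeq2 called 2 of the 30 higher (Nupr1 and Ddit4) and 2 lower (Slc7a11 and Tspyl2), where 4.57% and 2.58% of all tested genes were. Nupr1 and Slc7a11 were named as the 2 largest changes of the list among genes with a mean normalised count of at least 100. Ddit4 and Tspyl2, like the other called genes given below with no counts, were named after their calls were seen. Nupr1, a stress-induced chromatin factor, had 1717, 14826 and 12155 in knockdown organoids, against 734.9, 7988 and 5281 in control organoids (log2 change 1.11, adjusted p = 9.67e-08 in DESeq2 with the block, 0.136 in limma with the block). Slc7a11, the cystine importer, had 978.8, 850.3 and 3308 in knockdown organoids, against 1605, 4561 and 6793 in control organoids (log2 change -1.39, adjusted p = 0.00122 in DESeq2 with the block, 0.15 in limma with the block). The 12 aminoacyl-tRNA synthetases that ATF4 induces were all negative over the 6 libraries, at a median of -0.22 with 0 called, led by Lars (-0.42) and Iars (-0.41). Within replicates 1, 2 and 3 their medians were 0.11, -0.56 and -0.02, with 9, 0 and 6 of the 12 positive, and 1 of 12 was lower in all 3. The 8 synthetases outside that set had a median of -0.03 and 0 called, with Vars at 0.33 and Rars at -0.33.

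In the 52 other genes of ER folding and transport the median was -0.02. DESeq2 with the block called 1 higher (Ero1l) and 2 lower (Dnajc10 and Sec31a), where 4.57% and 2.58% of all tested genes were. Ero1l, the oxidase that recharges disulfide isomerases, had 4265, 41541 and 24391 in knockdown organoids, against 2198, 9001 and 10915 in control organoids. Its log2 change was 1.44 ± 0.95 (SE; limma adjusted p = 0.80). With the block DESeq2 called it (adjusted p = 1.83e-05) and limma did not (adjusted p = 0.147). Fkbp14, a prolyl isomerase of low level, had 54.4, 55.3 and 83.3 in knockdown organoids, against 106.0, 176.9 and 130.8 in control organoids, with a log2 change of -1.08 and no overlap. In all, 1 of the 52 lay wholly higher (Dnajc1) and 3 wholly lower (Fkbp14, Kdelr1 and Sec31a), where 6.29% and 5.44% of all tested genes did. The 31 other ER degradation genes had a median of 0.03 and 0 called, and Edem2, a relative of Edem1 (log2 change 0.39), and the ubiquitin-conjugating enzyme Ube2g2 (0.41) lay wholly higher in knockdown organoids. These were 2 of 31, with 1 of 31 wholly lower (Rnf139), where 6.29% and 5.44% of all tested genes were. The 24 other ER stress regulators had a median of -0.0059. Of them, DESeq2 with the block called 1 higher (Bak1) and 3 lower (Creb3l1, Creb3l2 and Agr2), where 4.57% and 2.58% of all tested genes were. Agr2, a disulfide isomerase of mucus-producing cells, had 23064, 2048 and 2346 in knockdown organoids, against 42216, 4202 and 9501 in control organoids and was highest in replicate 1 of both groups. Creb3l1, an ER-tethered transcription factor of secretory cells, had 931.4, 27.0 and 17.6 in knockdown organoids, against 1211, 124.0 and 150.7 in control organoids.

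Folding genes of other compartments gave medians near 0. The 17 tested cytosolic heat shock genes had a median of -0.07 with 0 called in DESeq2 with the block. Hspa1a, whose reads cannot be fully separated from its near-identical copy Hspa1b, had 285.9, 475.5 and 439.4 in knockdown organoids, against 228.7, 203.3 and 257.9 in control organoids. Its groups did not overlap, with a log2 change of 0.77 ± 0.28 (SE; limma adjusted p = 0.646), and the co-chaperone Bag3, with a change of 0.53, did not overlap either. In all, 3 of the 17 were wholly higher and 3 wholly lower (Hspa8, Hsp90ab1 and Hsf2), where 6.29% and 5.44% of all tested genes were. The 12 mitochondrial chaperones, proteases and regulators had a median of -0.05, and Clpx, a subunit of a matrix protease, had a change of 0.43. Atf5, the factor of the mitochondrial stress response and itself an ATF4-related gene, had 1002, 2220 and 4143 in knockdown organoids, against 913.0, 10054 and 10129 in control organoids (log2 change -1.11, adjusted p = 0.0397 in DESeq2 with the block, 0.226 in limma with the block).

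**Figure D5:**
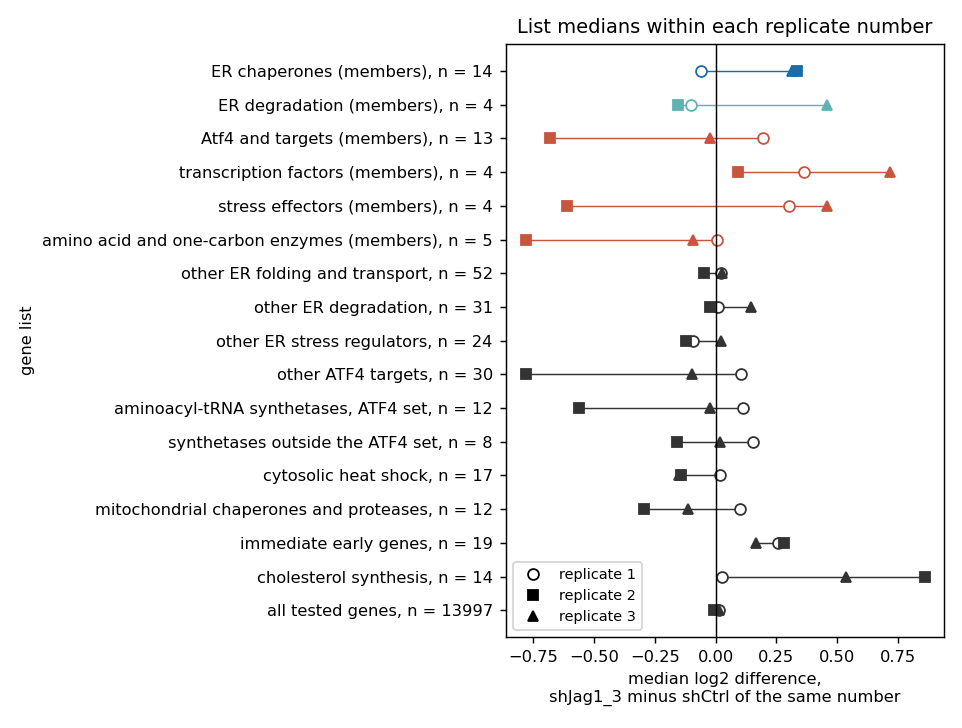
Median log2 difference between knockdown and control (horizontal axis) of each gene list (vertical axis) within replicates 1 (open circles), 2 (squares) and 3 (triangles). The ATF4 arm, the other ATF4 targets and the aminoacyl-tRNA synthetases are each lowest in replicate 2, and the chaperone median is positive in replicates 2 and 3.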

How the data were processed

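RNA-seq libraries were made with an unstranded TruSeq RNA kit, and 3 biological replicates per group were sequenced, per the labels. Trimmomatic, STAR 2.5.2b, DESeq2 1.32.0 and build GRCm38 are named in the submitters' processing notes, while the counting tool and the annotation are not given in the sources used here. The deposited values are a signal per gene and library: the authors scaled the reads of each library by its own size factor. Within 0.001, 100% of the values were whole multiples of 1 read, and whole reads were recovered from them. All 6 deposited tables were identical and 5 were left out. The 48 spike-in RNAs entered no gene test.

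The main test was limma-trend (limma 3.58.1, R 4.3.3) on log2(normalised count + 1) for 13997 genes, without a block, with Benjamini-Hochberg adjustment over all of them at 0.05. Fold changes on this scale understate changes of low genes. The filter left out 257 genes. Alternatives were edgeR 4.0.16 and DESeq2 1.42.0 on recovered reads, a replicate block, other pseudocounts and filters, TMM and spike-in scaling, and leaving out libraries. Deviations from group means correlated at r = 0.677, 0.568 and 0.443 between libraries of the same number. The numbers were therefore treated as pairs in the fits with a block and in differences within a replicate number. The main test did not use the pairing. The meaning of the numbers is not given in the sources used here, and knockdown 2 with control 3 (r = 0.385) and knockdown 3 with control 2 (r = 0.365) also passed the 0.1 required. With 3 samples per group an exact two-sided permutation test cannot go below p = 0.1.

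Genes were matched by Ensembl identifier to GENCODE M21 (GRCm38). Members and lists were chosen with earlier results of these data known. Beside the members, the 2 called genes with the largest change of each pathway list were named or, where none was called by limma, the 2 largest among genes with a mean normalised count of at least 100. The programs were tested on simulated data with known changes.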

Additional observations from a re-analysis of the deposited data

How the results depend on the processing

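Each of the 35 log2 changes, both arm medians and the counts of calls were recomputed under the alternatives. With the replicate block, Jag1 was called by DESeq2 (log2 change -1.02), as were 2 members higher and 1 lower, and the block changed no other call among members in limma or edgeR. Over the fits that left out libraries, members called ranged from 0 to 6 higher and 0 to 2 lower, and the same range was 0 to 8 and 0 to 3 in DESeq2 with the block. Both maxima were without replicate 1. Without control 1 limma called 1 member, Sdf2l1, and 294 genes in all. All tested genes called, 0 in limma, numbered 174 in DESeq2, 1001 in DESeq2 with the block, 2 in limma and 2 in edgeR with the block, and 116 under spike-in scaling. They ranged from 0 to 1346 when libraries were left out of limma, with 1 without knockdown 1. In DESeq2 with the block they were 2128, 99 and 121 without replicates 1, 2 and 3, chosen after seeing the data, with 918, 94 and 116 of them among the 1001. The ATF4 median ranged from -0.63 to 0.18 and the arm difference from -0.070 to 1.06, with the extremes without control 1 and without knockdown 1. Each of these fits keeps the other library of replicate 1. The chaperone median stayed positive throughout, at 0.10 to 0.43 when libraries were left out and 0.039 under spike-in scaling. Spike-in scaling moved the median of all tested genes to -0.18, and changed the sign of Pdia3 (-0.093), Pdia4 (-0.16), Pdia6 (-0.0093), Dnajc3 (-0.085), Herpud1 (-0.086), Sel1l (-0.13), Syvn1 (-0.10) and Trib3 (-0.16). Leaving out libraries changed the sign of 16 members, none of them called. Their ranges were -0.053 to 0.30 for Pdia3, -0.080 to 0.16 for Pdia4, -0.81 to 0.042 for Dnajb9, -0.13 to 0.39 for Dnajc3, -0.25 to 0.039 for Hyou1 and -0.28 to 0.41 for Herpud1. For Sel1l the range was -0.20 to 0.20, for Syvn1 -0.13 to 0.22, for Atf6 -0.87 to 0.34, for Atf4 -0.44 to 0.26 and for Trib3 -0.98 to 0.93. It was -1.003 to 1.45 for Chac1, -0.63 to 0.18 for Asns, -0.56 to 0.048 for Shmt2, -0.91 to 0.25 for Sesn2 and -0.27 to 0.64 for Ppp1r15a. Among these fits, Pdia3, Dnajb9, Atf6 and Chac1 changed sign only where 1 library was left out and the other of its number kept. Others, such as Pdia4 and Atf4, also changed sign in a fit without both libraries of a number. The cause of these changes was not tested. Signs of Atf3, Ddit3, Sdf2l1, Edem1, Ern1 and Phgdh were the same in all alternatives run, but sizes moved when libraries were left out: 0.58 to 1.61 for Atf3, 0.0089 to 1.88 for Ddit3, 0.42 to 1.13 for Sdf2l1, 0.33 to 0.92 for Edem1, -1.53 to -0.33 for Ern1 and -1.12 to -0.35 for Phgdh. With 3 libraries per group, and 2 in fits without a replicate number, a p that misses the threshold does not show that values did not differ.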

Other observations

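Immediate early genes, which are transcribed within minutes of a stimulus and include Atf3 in many cells, had a median log2 change of 0.26 over 19 tested genes. Within replicates 1, 2 and 3 the medians were 0.26, 0.28 and 0.17. DESeq2 with the replicate block called 3 higher (Dusp1, Jun and Zfp36) and 3 lower (Egr3, Ier3 and Nr4a1), where 4.57% and 2.58% of all tested genes were. All were named from these data. Dusp1 and Egr3 had the 2 largest changes of the list among genes with a mean normalised count of at least 100. Jun, Zfp36, Ier3 and Nr4a1 were named after their calls were seen. Dusp1, a phosphatase that switches off MAP kinases, had 254.3, 1634 and 863.4 normalised counts in knockdown organoids, against 164.9, 334.2 and 211.8 in control organoids. Its log2 change was 1.64 ± 0.67 (SE; limma adjusted p = 0.671), with an adjusted p of 0.000193 in DESeq2 with the block and 0.147 in limma with the block. Egr3, a transcription factor of the same class, went the other way, with 28.9, 162.2 and 162.8 in knockdown organoids, against 61.3, 314.7 and 384.9 in control organoids. Its log2 change was -1.08, with an adjusted p of 0.00692 in DESeq2 with the block and 0.147 in limma with the block.

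Cholesterol synthesis genes, whose regulators also sit in the ER membrane, had a median log2 change of 0.47 over 14 genes, 13 of them positive, and within replicates 1, 2 and 3 the medians were 0.03, 0.86 and 0.54. In knockdown organoids 6 of 14 were lower in both replicates 2 and 3 than in replicate 1 (39.7% of all tested genes), and in control organoids 13 of 14 were (44.4% of all tested genes). Lss, lanosterol synthase, had 4730, 4194 and 3222 in knockdown organoids, against 4538, 1531 and 1679 in control organoids, so the groups overlapped. The log2 change of Lss was 0.82 ± 0.43 (SE; limma adjusted p = 0.727, and 0.191 in limma with the block). Without replicate 1, with 2 libraries per group, limma called Lss (adjusted p = 0.017). That fit called 5 of the 14 genes higher and 0 lower, where 6.04% and 3.57% of all tested genes were. Insig1, the ER anchor that holds back cholesterol synthesis, had 6024, 9505 and 5866 in knockdown organoids, against 5663, 3339 and 3960 in control organoids, with groups that did not overlap (log2 change 0.72, limma adjusted p = 0.668). Of the 14 genes, 2 lay wholly higher (Insig1 and Msmo1) and 0 wholly lower, where 6.29% and 5.44% of all tested genes did.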
